A study of Rattus norvegicus with 64 samples.

Results

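A set of 194 gene IDs took 40.7% to 49.1% of all counts on gene IDs in the nucleus accumbens (ACB) of each rat and 0.326% to 0.354% in the dorsal hippocampus (HPCd) of the same rats. The members were chosen by their values. An ID was a member if its mean over the CTL rats was at least 500 CPM (a gene's counts as a share of all counts on gene IDs in that library, scaled so that these shares sum to 1000000) in the ACB and at least 8 times the mean of the same rats in the HPCd. Of the 32623 Ensembl gene IDs listed, 194 met the rule. ENSRNOG00000029042 and ENSRNOG00000037911 were left out by name and entered no count of members. The region difference in CTL rats is therefore a description of the choice and was not tested.

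Bulk RNA-Seq was made from tissue punches of both regions of 32 Sprague Dawley rats. ACE-K rats drank acesulfame potassium, a low-calorie sweetener, at about 15 mg/kg a day as a 0.1% (w/v) solution from postnatal day (PN) 26, CTL rats drank an equal volume of water from the same kind of sipper tube, and tissue was collected at PN 80. There were 8 rats of each sex in each treatment, all with chow and water, and estrous phase was not tracked. The comparisons of ACE-K with CTL rats addressed whether the sweetener drunk early in life changed gene expression in each sex.

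The ACB is the ventral part of the striatum. It is known for its role in motivation and feeding, and most of its neurons are GABAergic medium spiny neurons. The HPCd is known for its role in memory and is built around glutamatergic pyramidal and granule neurons. A counting tool such as HTSeq assigns a read to the gene whose exons it overlaps. Where genes overlap on opposite strands, the strand setting decides which gene is credited. That setting was not given in the sources used here, and the IDs could not be paired with gene names, positions or strands, so neither the markers of each region nor neighbours on the other strand were analysed here. What the members are known to do can for that reason not be given, and they are named by ID. A difference in tissue and a difference in how each table was counted cannot be told apart for any member.

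The number of counts on gene IDs differed greatly between the tables. Counts on gene IDs ranged from 255545 to 416869 per rat in the ACB (median 331011) and from 14304052 to 28292936 in the HPCd (median 20509054). The HPCd total over all rats was 63.3 times that of the ACB. The paper gives the reads sequenced per sample without separating the regions. How many ACB reads fell on no gene ID is not known here. Counting error is thus larger in the ACB for an ID of equal CPM. The ACB library of 1 rat, ACE-K male C106, stood apart from the others in many members, and the comparisons of treatment that include it are given with and without it.

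Members held more raw counts in the ACB than in the HPCd, although the ACB had far fewer counts on gene IDs. The summed raw count of the members was 118447 to 174900 per rat in the ACB (median 149945) and 50405 to 97513 in the HPCd (median 70716.5). The lowest ACB library was above the highest HPCd library. Of the members, 132 had a higher raw count in the ACB over all rats, and all but 73 of the 194 had one in each of the 32 rats. Over all IDs with counts, 7.93% of 17538 had a higher raw count in the ACB. The members' raw counts in the ACB were 5.74 times those in the HPCd in the median, with a range from 0.131 to 727.9 times. The 252 IDs with at least 500 CPM in the HPCd of CTL rats went the opposite way. They were chosen by that level, which favours low ratios of ACB to HPCd, and this was not tested. None of the 252 was a member. In the ACB, their raw counts were 0.135% of those in the HPCd in the median (5th to 95th percentile 0.0334% to 0.510%). The totals of the tables, which include the members, gave 1.58%. In 186 of the 252, the mean CPM in CTL rats was at most an eighth of that in the HPCd. The share of all IDs at or under that level was not counted, and the median ratio of IDs with counts in both regions is given below.

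**Figure D1:**
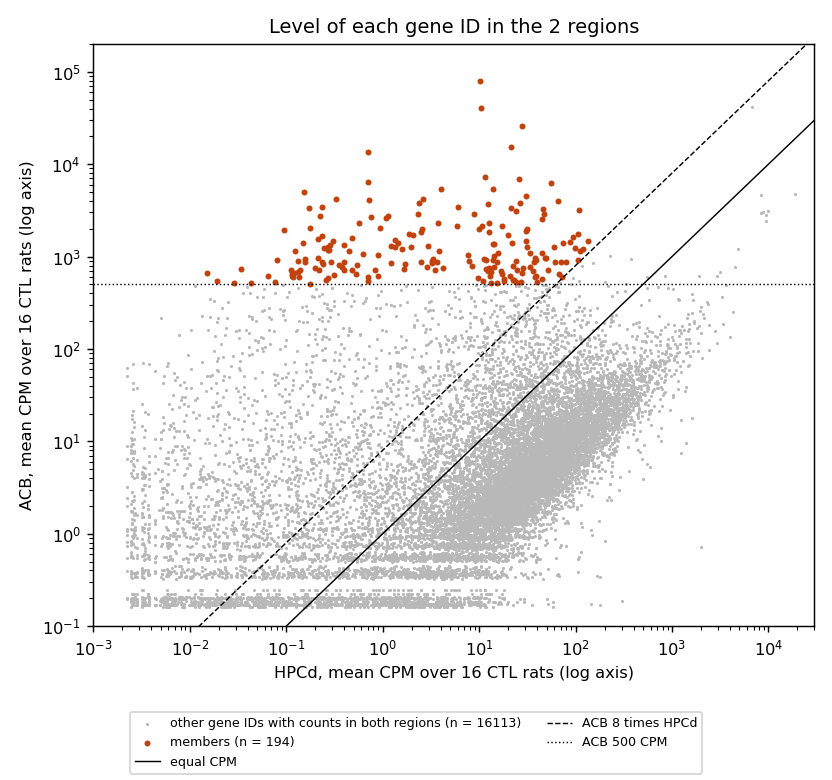
Mean CPM of each gene ID over the 16 CTL rats in the HPCd (horizontal, log axis) and the ACB (vertical, log axis), with the 194 members in orange, the 16113 other IDs with counts in both regions in grey, and lines for equal CPM, for 8 times and for 500 CPM. The members lie above both thresholds by construction, and the main cloud of the other IDs lies below the line of equal CPM.

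**Figure D2:**
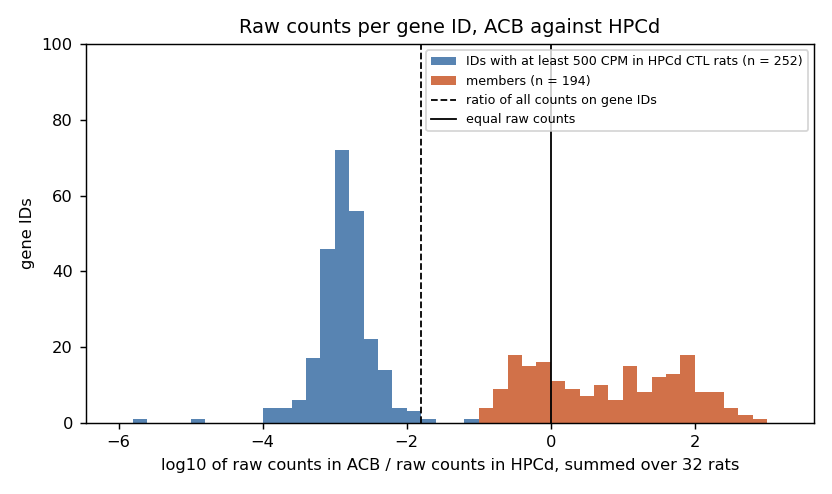
Histogram of the ratio of raw counts in the ACB to raw counts in the HPCd (log10, summed over 32 rats) for the 194 members (orange) and the 252 IDs with at least 500 CPM in the HPCd of CTL rats (blue). The dashed line is the ratio of the tables' totals and the solid line marks equal raw counts, which 132 members exceeded.

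The ratio of ACB to HPCd CPM in CTL rats had a median of 357 over the members, from 8.25 to 44635. It was under 100 in 73 members, at least 1000 in 74 and at least 10000 in 14. Over all IDs with counts, 16.1% had a ratio of at least 8, and the median ratio of the 16309 IDs with counts in both regions was 0.220. The ACE-K rats did not enter the rule. In them the ratio of the mean CPM was at least 8 in all 194 members (median 363, 8.20 to 37794), and it was at least 8 in each of the 16 ACE-K rats for 182 members. The mean CPM in the ACB of ACE-K rats was at least 500 in 192 members. The exceptions were ENSRNOG00000028381 with 368.7 CPM and ENSRNOG00000051272 with 447.8 CPM. Just inside the thresholds of the rule were ENSRNOG00000051272 (500.2 CPM in the ACB) and ENSRNOG00000024779 (ratio 8.25), and just outside were ENSRNOG00000017893 (495.2 CPM) and ENSRNOG00000025274 (ratio 7.60). Another 25 IDs reached 500 CPM in the ACB with ratios between 0.170 and 7.60.

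The members did not share one level in the HPCd. In CTL rats, 68 members were under 1 CPM there, 38 were at 1 to under 10 CPM, 82 were at 10 to under 100 CPM and 6 were at 100 CPM or more, up to 133.0 CPM. The 68 members under 1 CPM had a median ratio of 4770 and took 10.04% of ACB counts, and each of them had more raw counts in the ACB than in the HPCd. The 82 members at 10 to under 100 CPM had a median ratio of 44.9 and took 28.2% of ACB counts, and 27 of them had more raw counts in the ACB. The 6 members at 100 CPM or more had a median ratio of 10.6, and none of them had more raw counts in the ACB. Of all members, 34 were at 0 counts in at least 1 HPCd library and 53 had a median of under 10 counts there, so the highest ratios rest on few HPCd reads. ENSRNOG00000048284 had the highest ratio. It had 94 to 556 counts per rat in the ACB and at most 2 counts in the HPCd, with 0 counts in 24 HPCd libraries. For ENSRNOG00000058034, with 1107 to 2117 counts in the ACB and at most 8 in the HPCd, the ratio was 32680.

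Counts were unevenly spread over the members. The 5 members of at least 10000 CPM took 17.5% of all ACB counts, the 10 highest took 20.7% and the 30 highest took 28.03%. The 99 members between 500 and 1000 CPM together took 7.14%. ENSRNOG00000032882 was the highest member, with 78870 CPM in the ACB and 10.1 CPM in the HPCd of CTL rats. Its level in the ACB had a lowest, median and highest value of 73877, 78527 and 84043 CPM in CTL males, 68561, 79551 and 119978 CPM in ACE-K males, 69834, 79382 and 84604 CPM in CTL females, and 74623, 77488 and 83635 CPM in ACE-K females. The 4 groups overlapped, and 1 ACE-K male, rat C106, lay above all other rats. ENSRNOG00000020346 came next with 40162 CPM in the ACB and 10.6 CPM in the HPCd of CTL rats, and it ranged from 34774 to 49183 CPM over the 32 ACB libraries. Below it were ENSRNOG00000024259 (25649 CPM in the ACB, 28.1 CPM in the HPCd), ENSRNOG00000019394 (15397 and 21.4 CPM), ENSRNOG00000048353 (13596 and 0.705 CPM), ENSRNOG00000012579 (7208 and 11.5 CPM), ENSRNOG00000013987 (6941 and 25.8 CPM), ENSRNOG00000007006 (6479 and 0.702 CPM), ENSRNOG00000014287 (6289 and 55.8 CPM) and ENSRNOG00000019992 (5375 and 4.004 CPM). These are shares of a library and not levels per length of gene.

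Members varied more between rats than reads alone would give. The coefficient of variation (CV) of CPM over the 32 ACB libraries had a median of 14.02% (5.68% to 71.1%), against a median of 5.59% for counting error. The CV was at least 2 times counting error in 153 of 194 members. Rat C106, described below, is among the 32 libraries, and no CV without it or over all IDs is given here. It was under 10% in 37 members and over 30% in 10. The most even member was ENSRNOG00000009870, with 759 to 950 CPM and a CV of 5.68%, close to its counting error of 5.97%. Among the highest members, ENSRNOG00000019394 was nearly as even (CV 6.14%, 12807 to 17264 CPM).

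ENSRNOG00000024259 and ENSRNOG00000048353 stood out among the 10 highest members for their spread. ENSRNOG00000024259 had a lowest, median and highest value of 21750, 31852 and 35682 CPM in CTL males, 6259, 27156 and 34415 CPM in ACE-K males, 9720, 22648 and 32524 CPM in CTL females, and 13924, 28186 and 35572 CPM in ACE-K females. ENSRNOG00000048353 had 8844, 11602 and 16040 CPM in CTL males, 4068, 12119 and 24660 CPM in ACE-K males, 11689, 13921 and 23320 CPM in CTL females, and 9417, 12040 and 16449 CPM in ACE-K females. For both members the groups overlapped widely, and their test for a difference between the sexes in the effect of ACE-K is given below. Of the 6 rats lowest in ENSRNOG00000024259, 5 were among the 6 highest in ENSRNOG00000048353, namely C92, C102, C107, C112 and C119, which came from ACE-K males, CTL females and ACE-K females. At the other end, 4 of the 6 rats highest in ENSRNOG00000024259 were among the 6 lowest in ENSRNOG00000048353. Taking 4 rats at each end, 3 and 1 were shared, and taking 8 rats, 6 and 4 were. Both are shares of the same library, and this pattern was chosen after its values were seen.

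ENSRNOG00000028381 varied most of all members (CV 71.1%). Its CPM in the ACB fell on either side of an empty range, with 22 rats between 219 and 400 CPM and 10 rats between 695 and 1304 CPM. The higher 10 were 6 CTL males, 2 ACE-K males, 2 CTL females and no ACE-K female. In the HPCd it had a median of 2 counts per rat and at most 6, so that the same split could not be looked for there.

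**Figure D3:**
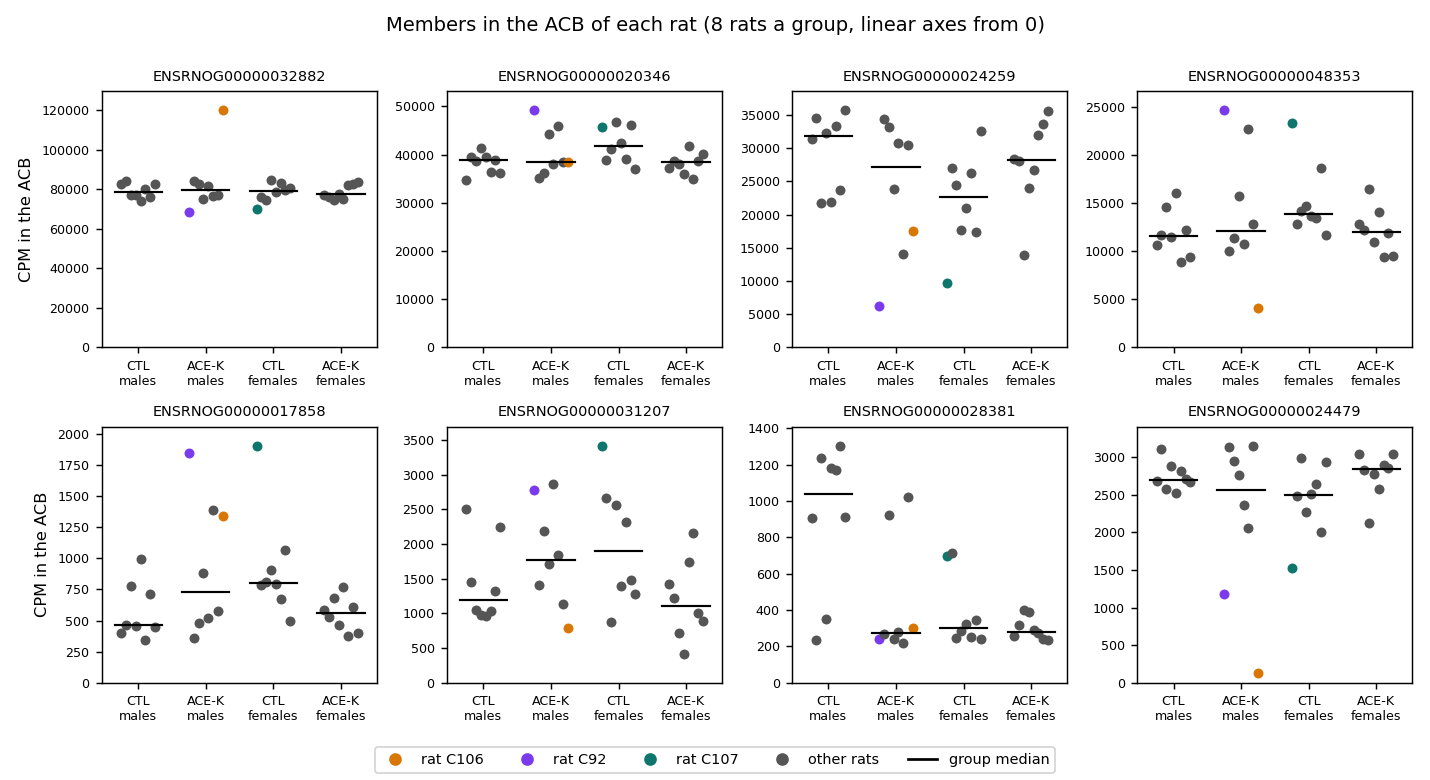
CPM of 8 members in the ACB of each rat (vertical, linear axes from 0), in 4 groups of 8 rats, with the group median as a line and rats C106, C92 and C107 in colour. ENSRNOG00000028381 shows the gap between 400 and 695 CPM, and C106 lies at the top of ENSRNOG00000032882 and at the bottom of ENSRNOG00000048353 and ENSRNOG00000024479.

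The library of ACE-K male C106 stood apart in the members. It was the lowest of the 32 ACB libraries in 91 members and the highest in 36, where over all 5950 IDs tested in the ACB it was lowest in 18% and highest in 8.2%. Its CPM was under 50% of the median of the other 31 rats in 52 members, under 25% in 18 and over 2 times that median in 5. No other rat was under 50% in more than 9 members. ENSRNOG00000024479 was at 130 CPM in C106 (54 counts) and at 1185 to 3151 CPM in the other rats. ENSRNOG00000052718 was at 64.8 CPM against 462 to 1673 CPM, and ENSRNOG00000019992 at 684 CPM against 4415 to 6949 CPM. On the other side, ENSRNOG00000032882 was at 119978 CPM in C106 against at most 84604 CPM elsewhere, and ENSRNOG00000015734 at 2951 CPM against at most 1344 CPM. In the HPCd, only 8 of the 18 members under 25% had a median of at least 10 counts, so a fall of that size could not be looked for in the rest. In 4 of these 8 the HPCd library of C106 was at or above the median of the other rats. In none of the 18 was it the lowest HPCd library. After C106, the ACB library lowest in the most members was that of ACE-K female C114 with 44 (5.08% of all IDs tested), and those highest in the most were ACE-K males C92 with 33 (6.54%) and C102 with 28 (4.08%). The IDs left out by name are part of the total behind each CPM. They took a median of 18.6% of ACB counts, with the most in C114 (24.8%) and C106 (23.1%). The least was in C102 (14.1%) and C92 (14.3%). What this share does to the members' CPM in these rats was not tested.

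**Figure D4:**
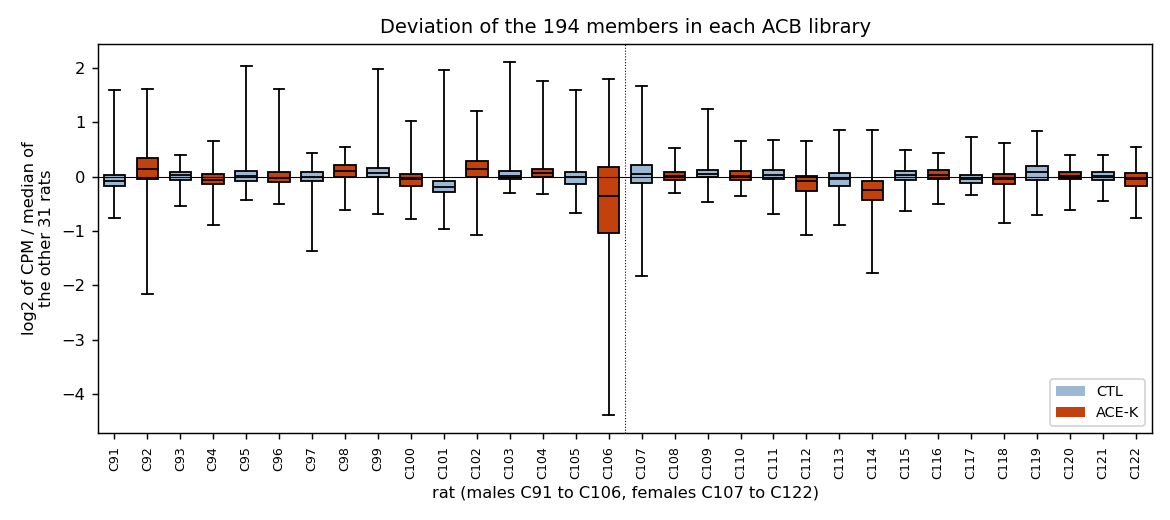
Deviation of the 194 members in each of the 32 ACB libraries, as the log2 of the CPM over the median of the other 31 rats (vertical). Boxes show the quartiles and median, whiskers the lowest and highest member, CTL rats are blue and ACE-K rats orange. The box of C106 is the widest, with a median of -0.36 and a lowest value of -4.38.

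The members' share of ACB counts did not differ detectably between treatments. ACE-K males had 46.1% ± 2.34 (SD, n = 8), CTL males 45.2% ± 1.39 (SD, n = 8), a difference of 0.911 percentage points (exact permutation test, 2-sided, p = 0.358, adjusted p = 0.358 over both sexes). ACE-K females had 44.6% ± 2.09 (SD, n = 8), CTL females 46.1% ± 0.729 (SD, n = 8), a difference of -1.41 points (exact permutation test, p = 0.0915, adjusted p = 0.183). The groups overlapped in both sexes, with shares from 42.0% up to 49.1% for ACE-K males against 42.4% up to 46.8% for CTL males, and from 40.7% up to 46.6% for ACE-K females against 45.3% up to 47.7% for CTL females. Without C106 the difference in males was 1.51 points (exact permutation p = 0.0827), and without C114 that in females was -0.839 points (exact permutation p = 0.183). With ENSRNOG00000029042 and ENSRNOG00000037911 removed from the total, the differences were 0.469 points in males and -0.282 points in females.

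Single members were then compared in the fit of each sex across all IDs tested, with edgeR. Fold changes are log2 on TMM-normalized counts, and a member was called at an unadjusted p under 0.05 with a log2 fold change of at least 0.4 in size, the thresholds the study used. The CTL levels that chose the members also enter these comparisons, so a member whose CTL rats were high by chance passed the rule more readily. All 194 members were tested in the ACB. In males 5 were called, which is 2.58% of the members where 4.14% of all 5262 IDs were called. ACE-K rats were higher in 4 of them and lower in 1, where 1.79% and 2.36% of all IDs were called in these directions. Scaling by column totals gave 3 calls, 2 higher and 1 lower. In females 2 were called, both lower, which is 1.03% of the members where 6.4% of all 5154 IDs were called (2.62% lower). No member passed an adjusted p of 0.05 in males (smallest edgeR adjusted p = 0.974, with 9 members at an unadjusted p under 0.05 where 4.43% of all IDs were), and 1 did in females, where 0.0582% of all IDs did. With no filter on low counts, the edgeR fit passed 2 members in males and 2 in females, while no other alternative passed any in males. In 31 members, or 15.98%, the unadjusted p in females was under 0.05, where 8.46% of all IDs were, and all but the 2 called were under the fold threshold. The members' fold changes had a median size of 0.094 in males and 0.085 in females. Over all IDs tested the median size was 0.19 in both sexes, and the rule kept only IDs of high count.

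The sign of the fold changes leaned in opposite directions in the sexes, although the lean in males depended on the filter on low counts and on single rats. In males, 125 of 194 members were above 0 where 49.6% of all IDs were, with a median log2 fold change of 0.05. In females, 66 members were above 0 where 51.0% of all IDs were, with a median of -0.04. In 98 members the value was above 0 in males and below 0 in females, in 39 it was the reverse, in 27 it was above 0 in both and in 30 below 0 in both. As a share of the members, the fit gave 64.4% above 0 in males and 34.0% in females. The shares were 59.3% and 67.5% in males and 25.8% and 29.4% in females with column totals and DESeq2's size factors, 53.1% in males and 42.8% in females with at least 10 counts in every rat, 70.6% in males without C106 and 42.8% in females without C114. Members share each library and its scaling, so these counts are not 194 separate observations.

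ENSRNOG00000017858 was called in both sexes, in opposite directions. Its lowest, median and highest levels in the ACB were 346, 461 and 990 CPM in CTL males and 362, 729 and 1843 CPM in ACE-K males. In females they were 495, 802 and 1904 CPM in CTL rats and 373, 557 and 771 CPM in ACE-K rats. The groups overlapped in both sexes, and the highest values came from ACE-K male C92 and CTL female C107. Next were ACE-K males C102 (1389 CPM) and C106 (1341 CPM) and CTL female C119 (1069 CPM). C92, C102, C107 and C119 are among the rats named above for ENSRNOG00000024259 and ENSRNOG00000048353, while ACE-K female C112, also named there, was at 679 CPM. What these rats jointly add to the fold changes was not tested. The log2 fold change was 0.71 (SE 0.25, edgeR adjusted p = 0.974) in males and -0.72 (SE 0.15, edgeR adjusted p = 0.0434) in females. It stayed called with each rat left out in turn, but the edgeR adjusted p in females ranged from 2.00e-10 with no filter on low counts to 0.138 over the alternatives and reached 0.156 with 1 rat left out. In males it ranged from 0.00333 with no filter to 0.996. Its level in the HPCd was 12.8 CPM in CTL rats, and it was not called there.

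ENSRNOG00000028381 was the 1 member called lower in ACE-K males, with a log2 fold change of -1.03 (SE 0.31, edgeR adjusted p = 0.974, from 4.16e-09 with no filter on low counts to 0.996 over the alternatives). Its lowest, median and highest values were 234, 1041 and 1304 CPM in CTL males and 219, 273 and 1023 CPM in ACE-K males. The medians lay on either side of the empty range described above, while the groups overlapped. Averaged over treatments, it was also the 1 member called between the sexes (0.515% of the members where 2.96% of all 5950 IDs were called, 1.45% lower), with a level lower in females by a log2 fold change of -0.91 (SE 0.20, edgeR adjusted p = 0.0277, 1.00e-18 with no filter on low counts to 0.263 over the alternatives). An adjusted p under 0.05 was reached by 0.0672% of all IDs there. In CTL females it was at 243, 303 and 712 CPM and in ACE-K females at 237, 280 and 400 CPM. It passed the rule through the high values of the CTL males. Its lower level in ACE-K males and in females is therefore partly built into the choice of members and is no separate support.

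ENSRNOG00000031207 was the other member called lower in ACE-K females. Its lowest, median and highest levels were 879, 1900 and 3417 CPM in CTL females and 414, 1114 and 2158 CPM in ACE-K females, a log2 fold change of -0.73 (SE 0.20, edgeR adjusted p = 0.271, from 6.62e-13 with no filter on low counts to 0.384 over the alternatives). In males they were 964, 1188 and 2502 CPM in CTL rats and 794, 1772 and 2870 CPM in ACE-K rats. ENSRNOG00000010914, called higher in ACE-K males with a log2 fold change of 0.41 (SE 0.15, edgeR adjusted p = 0.974), had 491, 622 and 732 CPM in CTL males and 596, 710 and 1179 CPM in ACE-K males. Its call was lost in 7 of the 16 fits that left out 1 male, C106 among them, where its log2 fold change went down to 0.30. Without C106, 3 members were called in males, of which ENSRNOG00000017858 and ENSRNOG00000028381 were also among the 5. ENSRNOG00000015734, far higher in C106 than in any other rat, was called higher in ACE-K males only with C106 kept. Its log2 fold change with all rats was 0.53 (SE 0.24, edgeR adjusted p = 0.974).

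**Figure D5:**
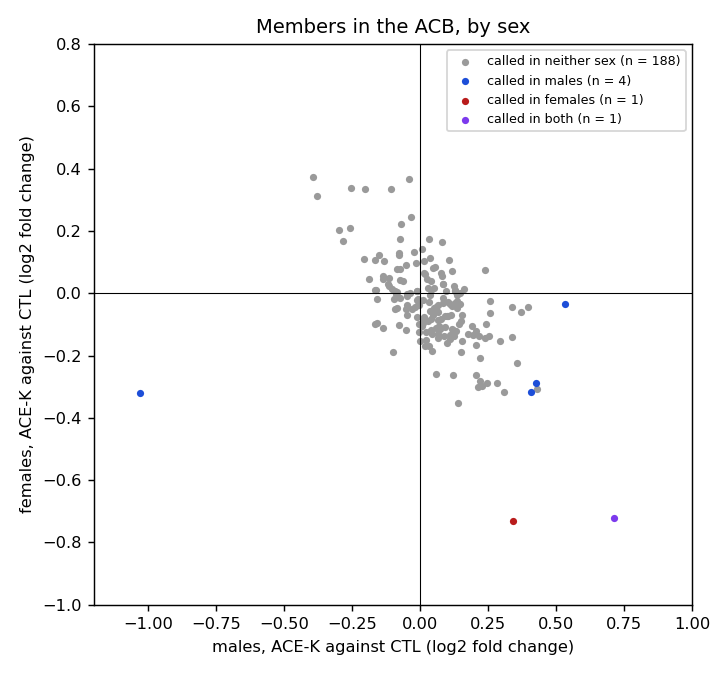
Log2 fold change of ACE-K against CTL rats in the ACB for the 194 members, in males (horizontal) and females (vertical), with members called in males in blue (4), in females in red (1), in both in purple (1) and in neither in grey (188). The member called in both is ENSRNOG00000017858, at 0.71 and -0.72, and ENSRNOG00000028381 lies farthest to the left at -1.03.

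The difference between the sexes was tested as the Treatment × Sex term in 1 fit of the 32 ACB libraries. By the same thresholds 23 members were called, 5 above and 18 below 0, which is 11.9% of the members where 8.27% of all 5950 IDs were called. A value below 0 means that the effect of ACE-K was lower in females than in males. The 18 members below 0 were 9.28% of the members, where 3.55% of all IDs were called in that direction, and the 5 above 0 were 2.58%, where 4.72% were. The rule kept only IDs of high count, so the shares over all IDs are not matched for count. Members also share each library, so these calls are not separate observations. Without C106 there were 20, of which 17 were among the 23. None passed an adjusted p of 0.05 by edgeR (37 had an unadjusted p under 0.05, where 8.64% of all IDs did) or by the DESeq2 test (39 did), while the edgeR fit with no filter on low counts passed 6. The smallest edgeR adjusted p was 0.117, for ENSRNOG00000017858 (log2 difference -1.43, SE 0.32), which ranged from 2.55e-12 with no filter to 0.146 over the alternatives. ENSRNOG00000002898 came next with -0.58 (SE 0.15, edgeR adjusted p = 0.164, 0.0730 to 0.317 over the alternatives). Its lowest, median and highest levels were 3003, 3462 and 4199 CPM in CTL males, 3253, 4140 and 5858 CPM in ACE-K males, 3485, 3661 and 5588 CPM in CTL females and 2417, 3498 and 4049 CPM in ACE-K females. Above 0 were ENSRNOG00000047537 (0.53, SE 0.23, edgeR adjusted p = 0.483, 0.294 to 0.626 over the alternatives) and ENSRNOG00000004703 (0.76, SE 0.35, edgeR adjusted p = 0.519, 0.0370 with no filter to 0.656 over the alternatives). ENSRNOG00000004703 was at 76.8 CPM in C106, the lowest of the ACE-K males, whose median was 604 CPM.

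In the HPCd, where the members are rare, 172 of 194 could be tested in males and 176 in females, since 22 and 18 did not reach the minimum count. In males 4 were called (2.33% of those tested, where 1.33% of all 15704 IDs were called), 1 higher and 3 lower, where 1.06% and 0.274% of all IDs were called in these directions. In females 2 were called (1.14%, where 1.34% of 15651 were), 1 higher and 1 lower, where 0.224% and 1.12% were. No member passed an adjusted p of 0.05 in either sex (smallest edgeR adjusted p = 0.963 in males and 0.996 in females, with 8 and 6 members at an unadjusted p under 0.05, where 5.12% and 4.14% of all IDs were). ENSRNOG00000006263 was called higher in ACE-K males with 3 to 10 counts per rat against 1 to 5 in CTL males (log2 fold change 1.06, SE 0.29, edgeR adjusted p = 0.963). ENSRNOG00000049530 was called lower with 1 to 7 counts against 3 to 14. In females ENSRNOG00000059017 was called higher with 2 to 13 counts against 1 to 7, and ENSRNOG00000053007 lower with 0 to 6 counts against 2 to 8. All of these rest on a handful of reads per rat. ENSRNOG00000031207 had more, with 23 to 61 counts per ACE-K male against 28 to 82 per CTL male. Its log2 fold change was -0.42 (SE 0.17, edgeR adjusted p = 0.963). It was called in females in the ACB and in males in the HPCd, and these comparisons were not tested against each other. The members' share of HPCd counts was likewise close between treatments. ACE-K males had 0.342% ± 0.00818 (SD, n = 8) against 0.343% ± 0.00655 (SD, n = 8) for CTL males, with an exact permutation p of 0.752. ACE-K females had 0.342% ± 0.00572 (SD, n = 8) against 0.346% ± 0.00526 (SD, n = 8) for CTL females, with an exact permutation p of 0.153. In bulk tissue, fewer cells of a type and less RNA per cell cannot be told apart for any of these values.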

How the data were processed

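Punches of the HPCd and ACB were sequenced as single reads from libraries made with a NuGen Universal Plus mRNA-Seq kit. The authors used FastQC for quality control, Trimmomatic for trimming, STAR for alignment to Rnor6.0 and HTSeq for counts per gene. They deposited 1 table of raw counts per region with 1 column per rat and no normalization. Tool versions, annotation release and strand setting were not given in the sources used here. For the HPCd, 5 summary rows of the table, left out here, held 20.9% to 24.8% of a column (no feature 20.3% to 24.3%, ambiguous 0.524% to 0.589%). The ACB table lists gene IDs only.

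CPM and the members were computed from these deposited counts. The members, lists and alternatives were chosen with earlier results of these data known. Region and treatment came from the labels. Rats C91 to C106 were taken as males and C107 to C122 as females. The p-values measure the spread between rats. Within groups, pairs of rats differed over the members by a chi-square per degree of freedom of at least 2.51 (ACB) and 1.86 (HPCd), above sampling noise, so each rat was 1 replicate.

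ACE-K and CTL rats were compared within each sex and region, and Treatment × Sex and Sex in the 4 groups of the ACB, by edgeR's quasi-likelihood test (version 4.0.16, R 4.3.3) with TMM on all IDs that reached a normalized count of 5 in 3 or more rats, and adjusted by Benjamini-Hochberg. The authors used DESeq2, which was an alternative here (version 1.42.0). Others were its size factors, column totals, no filter, at least 10 counts in every rat, and leaving out rats. Shares per rat were compared by exact permutation tests within each sex. The study removed 1 ACB sample of the ACE-K group, and all were kept here. The scripts were tested on simulated data.

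The rule for named members covered the 30 highest, those called, and those next to a threshold. Since no ID of the tables matched the gene table at hand (0 matches), no name, marker list, position, strand or sequence was used, and naming was narrowed to the 10 highest, up to 2 called higher and 2 called lower per comparison, and those next to a threshold. Members named for their ratio or spread, or for their value in C106, were chosen after their values were seen.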

Additional observations from a re-analysis of the deposited data

Results flagged for a closer look

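In each group of 8 ACB libraries, the members named with a test and among the highest, and the members' share of counts, were searched for a rat far from the others. Of 88 groups looked at, 6 had one, where chance gives about 1 in 20. Rat C106 was the one in 2 of them, both in ACE-K males. ENSRNOG00000032882 was at 119978 CPM there, where the next rat was at 84407 CPM, and ENSRNOG00000019992 was at 684 CPM, where the next was at 4801 CPM. ENSRNOG00000017858 was at 1904 CPM in CTL female C107, where the next was at 1069 CPM. ENSRNOG00000047537 was at 2139 CPM in CTL male C99, with the next at 2829 CPM. ENSRNOG00000053007 was at 1004 CPM in ACE-K female C114, with the next at 1161 CPM. The members' share of counts was 47.7% in CTL female C119, with the next CTL female at 46.4%.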

How the results depend on the processing

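No paired analysis was possible because ACE-K and CTL rats are different animals that share no number, and the same numbers recur only between the regions, whose tables were counted separately and were not tested against each other. The 5 members called in ACB males were 3 with column totals, 2 with at least 10 counts in every rat and 3 without C106, and 2 to 8 with each male left out in turn (2 without C101, 8 without C94 or C103). The 2 in ACB females were 4 with at least 10 counts in every rat and 2 to 8 with each female left out (8 without C112 or C121), and both were among the calls of every fit. The 4 in HPCd males were 1 with at least 10 counts in every rat, and the 2 in HPCd females were 1 by DESeq2 and 0 with at least 10 counts in every rat, where fewer members were tested. The cause was not tested elsewhere. The other alternatives kept each count within 1.5 times, with 16 to 33 calls for Treatment × Sex (23 in the report) and 1 for Sex. The difference in the members' share of counts kept its direction and stayed above an exact permutation p of 0.05 in each alternative run. Its size did change. With the 2 IDs left out by name also removed from the total, it was 0.469 points in males (exact permutation p = 0.524) and -0.282 in females (exact permutation p = 0.581). Without the highest member it was 0.508 points in males (exact permutation p = 0.751). ENSRNOG00000010914 lost its call in 11 of 22 alternatives, where the fit without C106 is counted 2 times in both numbers. ENSRNOG00000004703 lost it in 2 of 7 and ENSRNOG00000053007 in the HPCd in 1 of 4. With no filter on low counts, 2 members in ACB males, 2 in ACB females, 6 for Treatment × Sex and 2 for Sex passed an adjusted p of 0.05 in edgeR, against 0, 1, 0 and 1 with the filter. The fits without C114, the HPCd fit without C106 and the fits leaving out each rat were chosen after seeing the data. No result changed direction. At a median of 320 counts per member and rat in the ACB, counting error limits small differences, and in the HPCd 53 members had a median of under 10 counts.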
